A study of Homo sapiens with 16 samples.

Results

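Glucose is turned into pyruvate and lactate by a chain of enzymes, and several steps of that chain have alternative enzymes, called isozymes, that are made from separate genes. The genes described here are 8 such isozyme genes together with BNIP3 and P4HA2: the hexokinases HK1 and HK2, the phosphofructokinase subunits PFKL, PFKM and PFKP, the aldolase ALDOC and the lactate dehydrogenase subunits LDHA and LDHB. They were chosen by name, as every probe set whose only annotated gene symbol was one of these 10. The list was drawn up with earlier results of these data known. Each of the 10 had 1 gene-level probe set, and all 10 were among the 13796 genes tested, out of 18395 genes with a probe set of a single symbol. At exon level they had 173 probe sets, of which 161 were bright enough to be tested.

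The RNA came from L1236, an established line of human Hodgkin lymphoma cells, and was hybridised to whole-transcript arrays. All cells carried a retrovirus with a doxycycline-inducible short hairpin RNA against RELB, a subunit of the transcription factor NF-kB. The arrays labelled induced hold cells given doxycycline (n = 4), and the arrays labelled uninduced hold cells with the same retrovirus and no doxycycline (n = 4). No array of doxycycline-treated cells without this hairpin is among the samples, so doxycycline and the hairpin cannot be told apart. Within each group the titles carry a B code, B_1 or B_4, and a last number, 1 or 4, and their meaning is not stated. Replicates 1 and 2 are B_1 with last number 1 and 4, and replicates 3 and 4 are B_4 with last number 1 and 4. The 16 samples are 8 arrays summarised in both ways, since 4428 of 4428 probe sets listed in both summaries held identical values. Whether the 4 arrays of a group are separate cultures is not labelled, and the p-values then cover array-to-array spread alone, which could be technical.

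The hairpin's target does not clearly bear out the labels. RELB had log2 signals of 7.22, 7.26, 7.39 and 7.14 in the arrays labelled induced, against 7.23, 7.38, 7.54 and 7.45 in the arrays labelled uninduced. The groups overlapped, and the difference of -0.15 ± 0.09 (SE) did not pass the test (limma, adjusted p = 0.212). Over all genes the groups were far apart: 3744 genes passed as higher and 3912 as lower, with a median difference of 0.02. Cell-type markers also differed. TNFRSF8, the CD30 antigen that defines Hodgkin cells, averaged 11.59 ± 0.10 in arrays labelled induced and 6.89 ± 0.21 in arrays labelled uninduced (SD, n = 4 each), a difference of 4.70. Of 8 Hodgkin cell markers, 3 were higher in arrays labelled induced, 4 were lower and 1 did not pass; of the 4 tested B-cell markers 3 were higher and 1 did not pass. GATA3 and ID2, which Hodgkin cells are known to express, averaged 4.81 and 4.19 in arrays labelled induced against 9.999 and 9.41 in arrays labelled uninduced, while the B-cell gene CD79A averaged 11.04 against 5.73. The B-cell gene MS4A1 was below the filter in both groups. ID2 was below the filter in arrays labelled induced and was tested through its uninduced arrays alone. The call of ID2 adds no support to the count of Hodgkin markers that were lower. What part such differences between the cells had in the results below was not tested, and in RNA of a whole culture fewer cells of a type and less RNA per cell cannot be told apart.

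As background, hexokinase traps glucose in the cell as its phosphate, phosphofructokinase commits it to glycolysis, aldolase splits the doubly phosphorylated sugar, and lactate dehydrogenase turns pyruvate into lactate while restoring NAD+. Isozymes of a step differ in where they are made, how they are regulated and how tightly they bind their substrates. BNIP3 is an outer mitochondrial membrane protein that marks mitochondria for removal by autophagy, and P4HA2 is a catalytic subunit of the enzyme that hydroxylates prolines of collagen. Many genes of these families are known targets of the hypoxia-inducible factors (HIF), which bind DNA at sites that often have the core ACGTG. Other forms of the core were not searched.

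The stretches before the start sites of the 4 genes that were higher in B_4 among the uninduced arrays are shown because those genes moved together there. Each is the 250 bases upstream of a RefSeq start, read 5′ to 3′ on the gene's strand in GRCh38.p14. Capitals mark ACGTG or its reverse complement CACGT, and a CACGTG counts as a match on both strands. ALDOC lies on the minus strand at chr17:28576896-28577145 and had 3 matches. BNIP3 lies on the minus strand at chr10:131981924-131982173 and had 2 matches. LDHA, at the first of its 2 starts, lies on the plus strand at chr11:18394313-18394562 and had 5 matches, while its second start (not printed) had 0. P4HA2 lies on the minus strand at chr5:132227092-132227341 and had 0 matches.
ALDOC: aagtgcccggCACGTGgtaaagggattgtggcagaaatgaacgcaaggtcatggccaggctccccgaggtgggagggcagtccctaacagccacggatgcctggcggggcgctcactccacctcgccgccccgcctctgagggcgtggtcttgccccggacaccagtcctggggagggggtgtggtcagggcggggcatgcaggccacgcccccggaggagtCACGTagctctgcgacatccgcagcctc
BNIP3: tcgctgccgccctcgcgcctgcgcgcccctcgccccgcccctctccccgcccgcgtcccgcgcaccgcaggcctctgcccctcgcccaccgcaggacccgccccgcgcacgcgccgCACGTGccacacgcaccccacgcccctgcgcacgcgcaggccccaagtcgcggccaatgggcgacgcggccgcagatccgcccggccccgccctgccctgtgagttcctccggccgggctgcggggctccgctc
LDHA: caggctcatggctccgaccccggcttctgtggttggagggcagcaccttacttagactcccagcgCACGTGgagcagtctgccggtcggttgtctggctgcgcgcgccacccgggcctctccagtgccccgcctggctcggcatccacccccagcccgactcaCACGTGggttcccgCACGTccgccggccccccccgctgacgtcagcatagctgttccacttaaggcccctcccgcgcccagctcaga
P4HA2: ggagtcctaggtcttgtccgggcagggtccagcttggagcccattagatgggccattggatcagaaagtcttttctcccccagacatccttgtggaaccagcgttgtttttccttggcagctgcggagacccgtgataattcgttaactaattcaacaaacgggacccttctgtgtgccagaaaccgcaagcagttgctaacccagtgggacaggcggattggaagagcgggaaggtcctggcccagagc
Among the 27 promoters listed for the 10 members, 7 held the motif (25.9%), in HK2, PFKM, PFKP, ALDOC, LDHA and BNIP3. It was present in 6501 of all 35114 promoters searched (18.5%). Counted by gene, 6 of the 10 members held it before at least 1 start, against 21.7% of all genes searched, and a gene with more listed starts has more chances to hold it. A match describes these letters only, and says nothing about binding.

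Of the 10 members, 4 were higher in the arrays labelled induced (HK2, PFKL, PFKP and LDHA), 4 were lower (ALDOC, LDHB, BNIP3 and P4HA2), and HK1 and PFKM did not pass. Across all tested genes 27.1% passed as higher and 28.4% as lower, and 4 of 10 in each direction is not far from this background. BNIP3 and P4HA2 passed the filter on low values through their uninduced arrays alone, so their calls as lower add no support to that count. The 4 values of one group lay entirely on one side of the 4 values of the other in 8 of 10 members, against 49.8% of all tested genes. BNIP3 and P4HA2 are among these 8 and, for the same reason, add no support to this count either. The median difference over the members was 0.02, the same as over all genes. Values below are log2 signals in replicates 1 to 4, and each difference is induced minus uninduced from limma with its standard error and Benjamini-Hochberg adjusted p over all tested genes. Brightness depends on the probes, so levels of different genes are not set against each other.

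**Figure D1:**
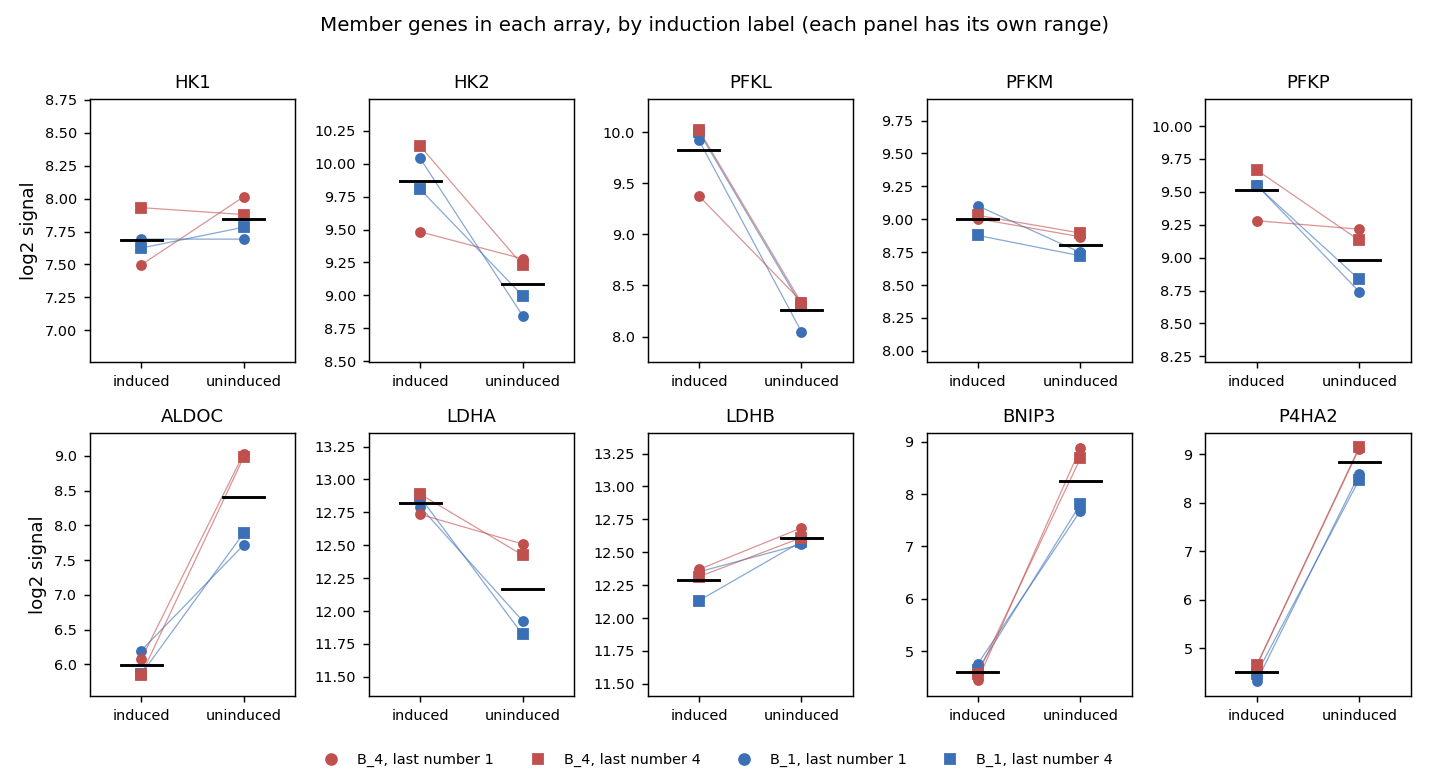
Log2 signal (vertical axis) of each of the 10 members on every array, with arrays labelled induced to the left of arrays labelled uninduced in each panel, bars at the means and lines joining arrays of the same B code and last number. BNIP3 and P4HA2 lie between 4.32 and 4.75 in all arrays labelled induced and at 7.68 or above in all arrays labelled uninduced, and PFKL shows the widest rise.

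At the first step, HK2 was higher and HK1 showed no call. HK2, the hexokinase of muscle, fat and many tumours, had 10.04, 9.81, 9.48 and 10.14 in arrays labelled induced, against 8.85, 8.997, 9.28 and 9.23 in arrays labelled uninduced. The groups did not overlap, and B_4 pairs with last number 1 stood closest, at 9.48 against 9.28. The difference was 0.78 ± 0.15, a 1.72-fold higher signal (adjusted p = 0.000888). HK1, the hexokinase made in most tissues, had 7.69, 7.62, 7.50 and 7.93 in arrays labelled induced, against 7.69, 7.78, 8.01 and 7.88 in arrays labelled uninduced. Its groups overlapped, and its difference of -0.16 ± 0.10 had a 95% interval from -0.39 to 0.08 (adjusted p = 0.241). The difference HK1 minus HK2 within an array averaged -2.18 ± 0.15 in arrays labelled induced and -1.25 ± 0.08 in arrays labelled uninduced (SD, n = 4 each). Its change of -0.93 ± 0.10 means that HK2 gained 1.91-fold on HK1, without overlap between the groups. HK3, a hexokinase of blood cells, was dim and did not pass, at -0.05 ± 0.09.

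At the phosphofructokinase step the liver-type subunit PFKL moved most. PFKL had 9.92, 10.001, 9.38 and 10.02 in arrays labelled induced, against 8.05, 8.30, 8.34 and 8.33 in arrays labelled uninduced. Every induced array was at least 1 log2 unit above every uninduced array, and the lowest induced array was replicate 3. The difference was 1.57 ± 0.13, a 2.98-fold higher signal (adjusted p = 1.55e-06). PFKP, the platelet-type subunit, had 9.55, 9.55, 9.28 and 9.67 in arrays labelled induced, against 8.74, 8.83, 9.22 and 9.13 in arrays labelled uninduced. These groups came within 0.06 of each other at B_4 with last number 1, and the difference was 0.53 ± 0.12, or 1.44-fold (adjusted p = 0.00278). PFKM, the muscle-type subunit, had 9.10, 8.88, 9.004 and 9.03 in arrays labelled induced, against 8.75, 8.72, 8.87 and 8.90 in arrays labelled uninduced. Its values overlapped, although each of the 4 pairs moved up, and its difference of 0.20 ± 0.08 (95% interval 0.01 to 0.38) did not pass at an adjusted p of 0.0724. With every array centred on its median the same difference was 0.25 and passed (adjusted p = 0.0263).

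The balance among the 3 phosphofructokinase subunits moved toward PFKL. Within an array, PFKL minus PFKM averaged 0.83 ± 0.33 in arrays labelled induced and -0.55 ± 0.12 in arrays labelled uninduced, a change of 1.38 ± 0.14 or 2.60-fold in the ratio. PFKL minus PFKP averaged 0.32 ± 0.15 in arrays labelled induced and -0.73 ± 0.15 in arrays labelled uninduced, a change of 1.04 ± 0.04 or 2.06-fold in the ratio. Both changes were without overlap between the groups. PFKM minus PFKP averaged -0.51 ± 0.18 in arrays labelled induced and -0.17 ± 0.15 in arrays labelled uninduced. That change of -0.34 ± 0.12 had a 95% interval from -0.67 to 0.00, 3 of 4 pairs moved down, and the groups overlapped (exact permutation test, two-sided, p = 0.0571). Without induced replicate 3 it was -0.41 and without uninduced replicate 3 -0.39, both without overlap.

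ALDOC, the aldolase best known from brain, was lower in the arrays labelled induced. It had 6.20, 5.86, 6.07 and 5.85 there, against 7.72, 7.89, 9.04 and 8.99 in arrays labelled uninduced. The induced arrays lay close together, and the uninduced arrays split by B code, with both B_4 arrays the higher. The difference was -2.41 ± 0.22, a 5.33-fold lower signal (adjusted p = 4.00e-06). ALDOA, the aldolase of muscle and most other tissues, was higher by 0.33 ± 0.12 (adjusted p = 0.0416), although its groups overlapped. ALDOC minus ALDOA averaged -3.17 ± 0.34 in arrays labelled induced and -0.42 ± 0.40 in arrays labelled uninduced, a change of -2.75 ± 0.25 or 6.72-fold in the ratio.

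The lactate dehydrogenase subunits moved in opposite directions. LDHA, whose tetramers favour making lactate from pyruvate, had 12.79, 12.87, 12.74 and 12.89 in arrays labelled induced, against 11.93, 11.82, 12.51 and 12.43 in arrays labelled uninduced. The groups did not overlap, and the difference was 0.65 ± 0.13, or 1.57-fold higher (adjusted p = 0.00114). LDHB, whose tetramers favour the reverse reaction, had 12.35, 12.13, 12.37 and 12.31 in arrays labelled induced, against 12.56, 12.58, 12.69 and 12.61 in arrays labelled uninduced. Its groups did not overlap, and it was lower by the smallest amount of the 8 members that passed: -0.32 ± 0.08, a signal 1.25-fold lower (adjusted p = 0.00592). LDHA minus LDHB averaged 0.53 ± 0.16 in arrays labelled induced and -0.44 ± 0.30 in arrays labelled uninduced. The ratio of LDHA to LDHB was thus 1.96-fold higher (change 0.97 ± 0.18), and the change was 0.65 in the B_4 pairs and 1.29 in the B_1 pairs. LDHC, the testis-type subunit, had a mean over the 8 arrays below the filter and was not tested. It was dim, at 5.98, 5.54, 5.40 and 5.66 in arrays labelled induced, against 3.87, 3.76, 3.72 and 4.13 in arrays labelled uninduced, without overlap.

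**Figure D2:**
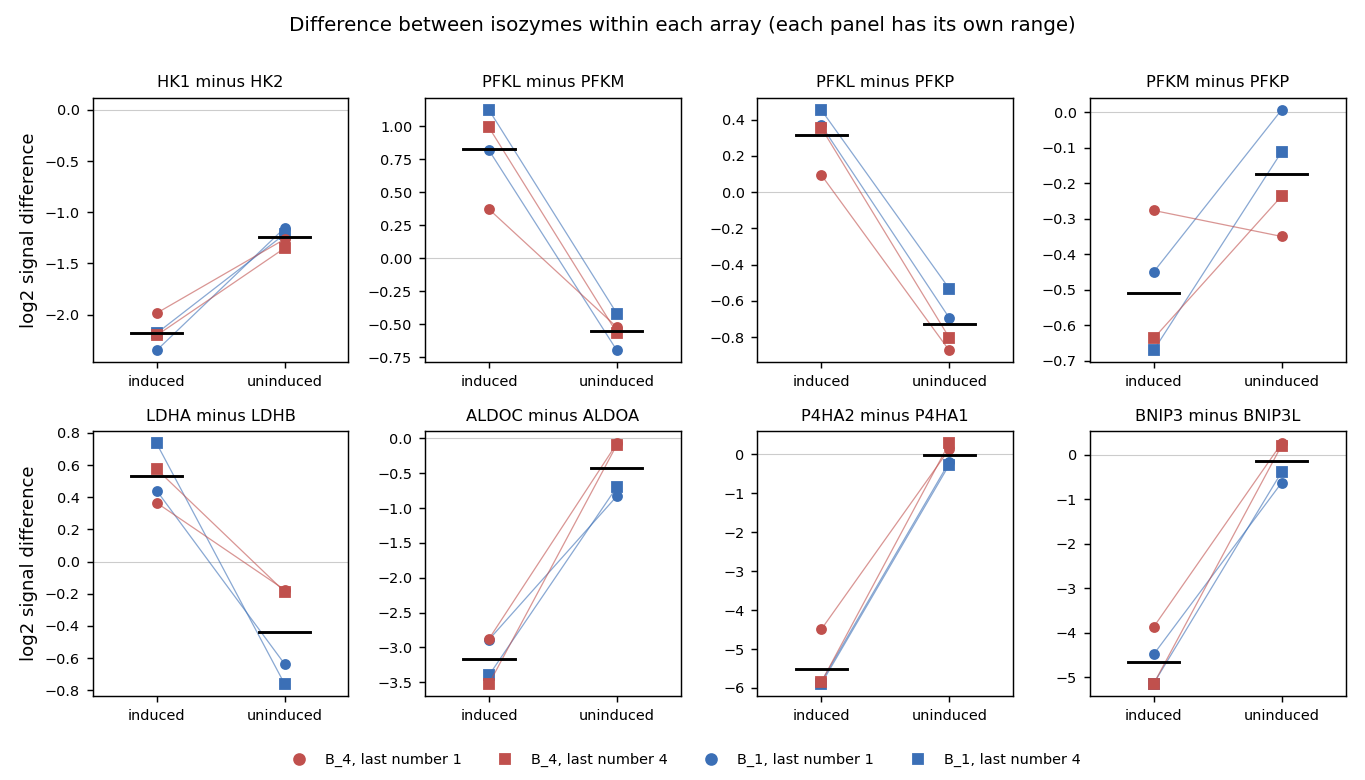
Difference of 2 log2 signals within each array (vertical axis) for 8 pairs of related genes, with arrays labelled induced to the left of arrays labelled uninduced, bars at the means and lines joining arrays of the same B code and last number. The groups do not overlap in 7 of the 8 pairs, and PFKM minus PFKP is the pair in which they do. BNIP3 and P4HA2 were dim and below the filter in the arrays labelled induced, so the gaps of their pairs are not exact.

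BNIP3 had 4.75, 4.65, 4.44 and 4.56 in arrays labelled induced, against 7.68, 7.81, 8.87 and 8.68 in arrays labelled uninduced. All induced values were below 4.78, the filter level and lowest mean of any tested gene, so the signal there was dim. The filter is not the floor of the array: PLOD2, for example, averaged 3.30 in arrays labelled induced. The difference was -3.66 ± 0.21 (adjusted p = 1.02e-07). P4HA2 had 4.32, 4.48, 4.64 and 4.65 in arrays labelled induced, against 8.59, 8.48, 9.12 and 9.15 in arrays labelled uninduced. Its induced values also lay below 4.78, and the difference was -4.31 ± 0.10 (adjusted p = 8.19e-11). Neither gene was clearly measured in the arrays labelled induced, so no exact fold is given and the 2 are not ranked. Set against the filter level of 4.78 instead, the uninduced mean was 11.2-fold higher for BNIP3 and 16.7-fold higher for P4HA2.

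A close relative of each was higher. BNIP3L, a mitophagy receptor also known as NIX, was higher by 0.87 ± 0.24 (adjusted p = 0.0106), with overlapping groups and a difference of -0.30 in the replicate 3 pair. BNIP3 minus BNIP3L averaged -4.67 ± 0.61 in arrays labelled induced and -0.14 ± 0.44 in arrays labelled uninduced, a change of -4.53 ± 0.31. P4HA1, the other widely expressed catalytic subunit, was higher by 1.20 ± 0.22 (adjusted p = 0.000835), and P4HA3 did not pass at 0.07 ± 0.08. P4HA2 minus P4HA1 averaged -5.52 ± 0.68 in arrays labelled induced and -0.01 ± 0.26 in arrays labelled uninduced, a change of -5.51 ± 0.31. P4HB, the protein disulfide isomerase that forms the rest of the enzyme, was higher by 1.22 ± 0.12. For each of the 7 pairs without overlap the two-sided exact permutation p was 0.0286, the lowest value that 8 arrays in 2 equal groups can give. These p-values over 8 pairs are not adjusted, and the genes of a pair and the pairs themselves share arrays. BNIP3 and P4HA2 were dim in the arrays labelled induced and passed the filter through their uninduced arrays alone. Their 2 pairs therefore add no support to the count of 7, and the sizes of those 2 changes are not exact.

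The uninduced arrays differed by B code. Both uninduced B_4 arrays were above both uninduced B_1 arrays in 10 of 10 members, against 27.5% of all tested genes, and the 10 values come from the same 4 arrays. The members were chosen with earlier results of these data known, so this share and the calls below describe them and are no test of the list. In a fit with a separate B term in each group, chosen after the data had been seen, 4 members were higher in uninduced B_4 arrays, where 0.776% of all genes were called higher (107 genes, with 288 called lower). ALDOC averaged 9.01 in uninduced B_4 arrays and 7.81 in uninduced B_1 arrays, a difference of 1.20 ± 0.14 (limma, adjusted p = 0.0051). BNIP3 averaged 8.78 in B_4 and 7.74 in B_1 arrays, a difference of 1.03 ± 0.12 (adjusted p = 0.00573). P4HA2 was 1.51-fold higher, at 9.13 in B_4 and 8.53 in B_1 arrays (adjusted p = 0.0302), and LDHA also 1.51-fold, at 12.47 in B_4 and 11.87 in B_1 arrays (adjusted p = 0.0332). The remaining 6 did not pass, and their differences ran between 0.08 in LDHB and 0.39 in PFKP. Each group of this comparison has only 2 arrays, and without uninduced replicate 1 the count was 0, while leaving out uninduced replicate 2, 3 or 4 left 1 call each.

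Among the arrays labelled induced limma called 0 members by B code there, with 0 at an unadjusted p below the threshold of 0.05, and 0.0652% of all genes were called. The differences B_4 minus B_1 ran between -0.26 in PFKL and 0.25 in P4HA2, and ALDOC was at -0.07 and BNIP3 at -0.20. P4HA2 had both B_4 arrays above both B_1 arrays here too. BNIP3 and P4HA2 are dim and below the filter in these arrays, so the lack of a call says little about them. Over all 8 arrays 0% of genes were called by B code. Limma called 0 members there, though ALDOC, LDHA and P4HA2 were 3 members with an unadjusted p below 0.05. By last number limma called 0 members, with 0 at an unadjusted p below 0.05.

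The interaction term, which asks whether the induced minus uninduced difference depends on B code and called 0.297% of all genes, called 2 members. The difference of BNIP3 was -4.27 in the B_4 pairs and -3.04 in the B_1 pairs, and the interaction was -1.23 ± 0.18 (limma, adjusted p = 0.0265). The difference of ALDOC was -3.05 in the B_4 pairs and -1.78 in the B_1 pairs, and the interaction was -1.27 ± 0.19 (adjusted p = 0.0368). The B_4 excess of the uninduced arrays enters both values. BNIP3 was dim and below the filter in the arrays labelled induced, so its interaction cannot be told apart from that excess. It does not show that the response of BNIP3 to induction depends on B code. LDHA, at 0.34 in B_4 and 0.96 in B_1 pairs, had an interaction of -0.61 ± 0.17 that did not pass (adjusted p = 0.178), and P4HA2 had one of -0.35 ± 0.16 (adjusted p = 0.432). Neither call held when arrays were left out in turn. BNIP3 lost its call whichever array was left out, with an adjusted p between 0.0565 and 0.237, and ALDOC lost its call in every case except without induced replicate 2, with an adjusted p between 0.059 and 0.248 in the others, while the estimates stayed near their size (-1.46 to -1.08 for ALDOC, -1.35 to -0.96 for BNIP3, over all alternatives). Under quantile normalisation ALDOC had an adjusted p of 0.0563, and with exon-level means BNIP3 had one of 0.0936.

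**Figure D3:**
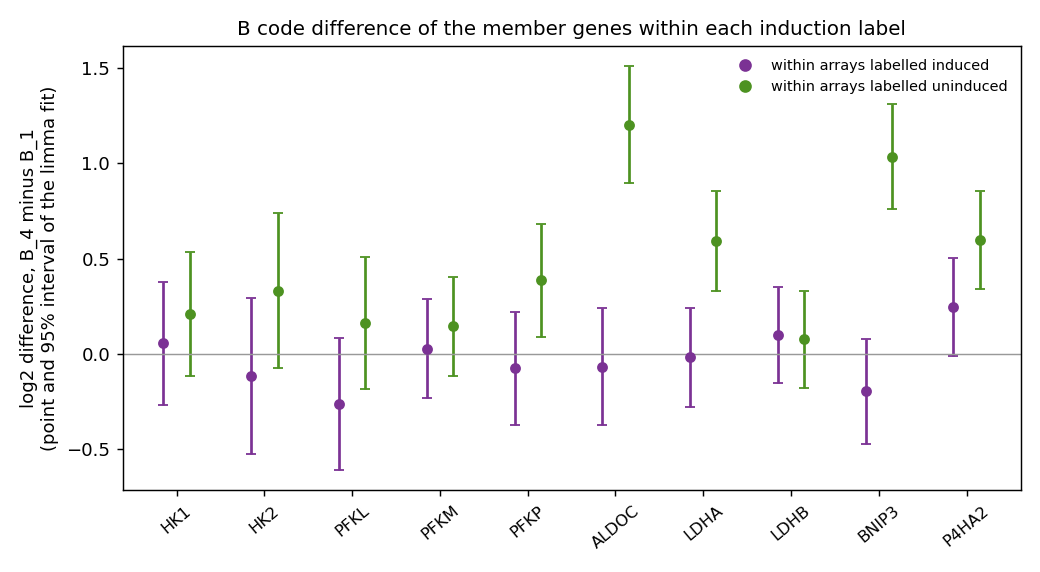
Log2 difference B_4 minus B_1 (vertical axis) of each of the 10 members within arrays labelled induced, drawn to the left, and within arrays labelled uninduced, drawn to the right, as points with the 95% interval of the limma fit. The uninduced points of ALDOC, BNIP3, P4HA2 and LDHA lie between 0.59 and 1.20, and all 10 induced intervals include 0.

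At exon level, 44 of the 161 tested member probe sets were higher and 36 lower in the arrays labelled induced, where 17.9% and 17.5% of all exon-level probe sets were called higher and lower. Exon-level probe sets of a gene are read from the same RNA and are not replicates. PFKL had 22 of 24 tested probe sets higher, with differences between 0.02 and 2.06 and a median of 1.72. ALDOC had 8 of 9 lower, with differences between -4.97 and -1.22. Differences ran between -6.66 and 0.51 in the 19 tested P4HA2 probe sets and between -6.03 and -0.30 in the 8 of BNIP3. In 11 of these P4HA2 and 4 of these BNIP3 probe sets, and in 1 of ALDOC, the induced mean was itself below the filter, so they were tested only through the uninduced arrays and their calls are no support. Among probe sets with an induced mean above the filter, 6 of P4HA2 and 3 of BNIP3 were lower. HK2 had 5 of 10 higher (0.29 to 0.99), LDHA 7 of 10 (0.41 to 1.03) and PFKP 8 of 25, and limma called 0 lower in these. LDHB had 1 of 8 lower, although all 8 differences were negative, and HK1 had 1 of 21 lower.

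Probe sets of a gene differed in size of change. In P4HA2, one probe set averaged 4.46 in arrays labelled induced and 11.13 in arrays labelled uninduced, the widest gap of any member probe set (-6.66 ± 0.22), while another stayed bright at 8.40 in arrays labelled induced and 9.14 in arrays labelled uninduced (-0.75 ± 0.13, adjusted p = 0.00466). A P4HA2 probe set averaging 7.46 in arrays labelled induced and 7.07 in arrays labelled uninduced did not pass. In BNIP3, one probe set averaged 3.50 in arrays labelled induced and 9.53 in arrays labelled uninduced, a difference of -6.03, and another averaged 8.31 in arrays labelled induced and 8.61 in arrays labelled uninduced and did not pass (-0.30 ± 0.22). PFKM, which had no call at gene level, had 2 probe sets higher and 2 lower. The larger of its falls was -1.95 ± 0.19, at 5.22 in arrays labelled induced against 7.17 in arrays labelled uninduced, and the larger of its rises was 1.09 ± 0.16, at 9.67 in arrays labelled induced against 8.58 in arrays labelled uninduced. Where in the transcript these probe sets lie was not used here, so they are not assigned to exons or isoforms.

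The B code split of the uninduced arrays was seen in most exon-level probe sets of the genes called for it at gene level. Both B_4 values lay above both B_1 values in 9 of 9 tested ALDOC probe sets, 10 of 10 of LDHA, 8 of 8 of BNIP3 and 18 of 19 of P4HA2, against 20.5% of all exon-level probe sets. Over all members it was 94 of 161 (58.4%), and the share was lowest in PFKM, at 8 of 27. These shares too describe members chosen with earlier results of these data known. ALDOC, LDHA, BNIP3 and P4HA2 had already been called on the same arrays at gene level, so their exon-level shares add no support to those calls.

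**Figure D4:**
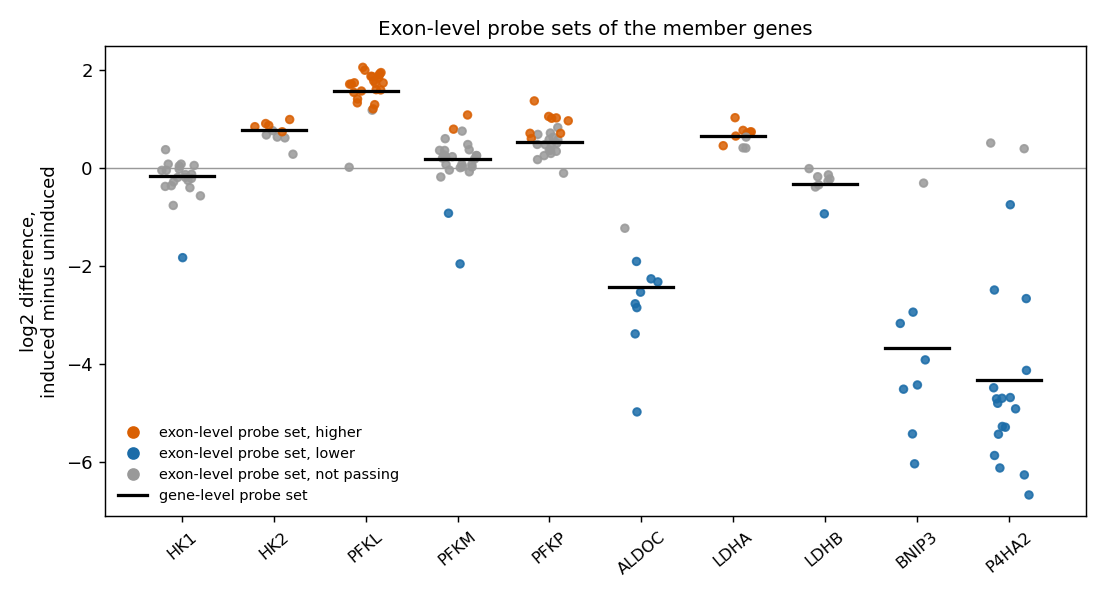
Induced minus uninduced log2 difference (vertical axis) of each tested exon-level probe set, by gene, with the gene-level value marked. PFKL probe sets lie almost all near the gene-level value of 1.57, while P4HA2 spans -6.66 to 0.51 and PFKM -1.95 to 1.09.

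Limma called 5 of the 14 other tested enzymes of glycolysis higher and 0 lower, against 27.1% and 28.4% of all tested genes, and their median difference was 0.18. Of the 5, ALDOA and PKM had overlapping groups. The same background shares apply to the lists that follow, whose counts are descriptions. ENO3, the muscle-type enolase, was higher by 1.54 ± 0.11, at 7.96 in arrays labelled induced and 6.42 in arrays labelled uninduced. GPI, which converts glucose phosphate to fructose phosphate ahead of phosphofructokinase, was higher by 1.28 ± 0.15, and ENO1, the common enolase, by 0.54 ± 0.09. PKM, the pyruvate kinase, also passed, at 0.26 ± 0.10 (adjusted p = 0.0407). GAPDH and PGK1 did not pass, at 0.19 ± 0.09 and 0.06 ± 0.12.

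Among genes for glucose entry, lactate export and regulation, 4 of 15 were higher and 6 lower (median -0.07). Among the largest differences were those of PFKFB2 (-2.14 ± 0.13), PDK2 (-2.01 ± 0.11) and SLC16A7 (-1.80 ± 0.11). PFKFB2 and SLC16A7 averaged 4.34 and 4.51 in arrays labelled induced, below the filter of 4.78, and were tested through their uninduced arrays alone. Their calls add no support to the count, and their differences are not exact, so these genes are not ranked. PFKFB2 sets the level of an activator of phosphofructokinase, PDK2 is an inhibitory kinase of pyruvate dehydrogenase, and SLC16A7 is a monocarboxylate transporter. The glucose transporter SLC2A1 averaged 9.61 in both groups and did not pass, with a difference of -0.42 in the B_4 pairs and 0.42 in the B_1 pairs. Among mitophagy receptors and adaptors, 2 of 14 were higher and 6 lower (median -0.21). PINK1, a kinase that labels damaged mitochondria, was lower (-1.29 ± 0.16), as were GABARAPL1, which links receptors to the autophagosome (-1.23 ± 0.11), and the receptor FUNDC1 (-1.09 ± 0.10).

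Among collagen hydroxylases and procollagen processing genes, 4 of 12 were higher and 4 lower (median 0.06). Besides P4HA2, the lysyl hydroxylases PLOD2 (-3.43 ± 0.09) and PLOD3 (-2.49 ± 0.14) and the prolyl hydroxylase P3H2 (-1.70 ± 0.14) were lower. P4HA1 and P4HB were higher. PLOD2 averaged 3.30 in arrays labelled induced, below the filter, and was tested through its uninduced arrays alone. The call of PLOD2 adds no support to the count of lower genes, and its difference is not exact. Among the HIF subunits and oxygen-sensing hydroxylases, 3 of 9 were higher and 2 lower (median -0.03). EPAS1, an oxygen-regulated HIF subunit, was lower (-1.64 ± 0.16), HIF1A was lower with overlapping groups (-0.33 ± 0.09), and the sensors EGLN3 and EGLN1 were higher by 0.68 ± 0.18 and 0.48 ± 0.12. Of 16 other hypoxia-induced genes, 6 were higher and 2 lower (median 0.22). RORA, a nuclear receptor, was higher by 5.16 ± 0.12, AK4, a mitochondrial adenylate kinase, was lower (-4.24 ± 0.13), and DDIT4, an inhibitor of mTOR signalling, was higher by 3.13 ± 0.37. Limma called 0 genes of these 6 lists higher in B_4 among uninduced arrays, and 4 lower: CALCOCO2 (-0.95), NBR1 (-0.70) and MAP1LC3B (-0.62) of the mitophagy list, and ARNT (-0.64), the partner of the HIF subunits. SLC2A1 (0.63, adjusted p = 0.0715), ALDOA (0.52, adjusted p = 0.0646) and TPI1, triosephosphate isomerase (0.52, adjusted p = 0.0551) missed the threshold with differences about as large as those of LDHA and P4HA2, so the members are not set apart by it.

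One array stood low in all of these lists. Induced replicate 3 was the lowest of the 4 induced arrays in 6 of 10 members, in 9 of 14 other glycolysis enzymes and in 11 of 16 other hypoxia-induced genes, against 24.0% of all tested genes. It was also lowest in 9 of 15 genes of glucose entry and regulation, 7 of 12 collagen genes, 7 of 14 mitophagy genes, 4 of 9 HIF genes, 4 of 8 Hodgkin markers and 3 of 4 B-cell markers. DDIT4, for example, had 9.51, 9.99, 7.63 and 10.19 in arrays labelled induced, against 5.95, 6.17, 6.36 and 6.32 in arrays labelled uninduced. Without that array, the same 8 members kept their calls.

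**Figure D5:**
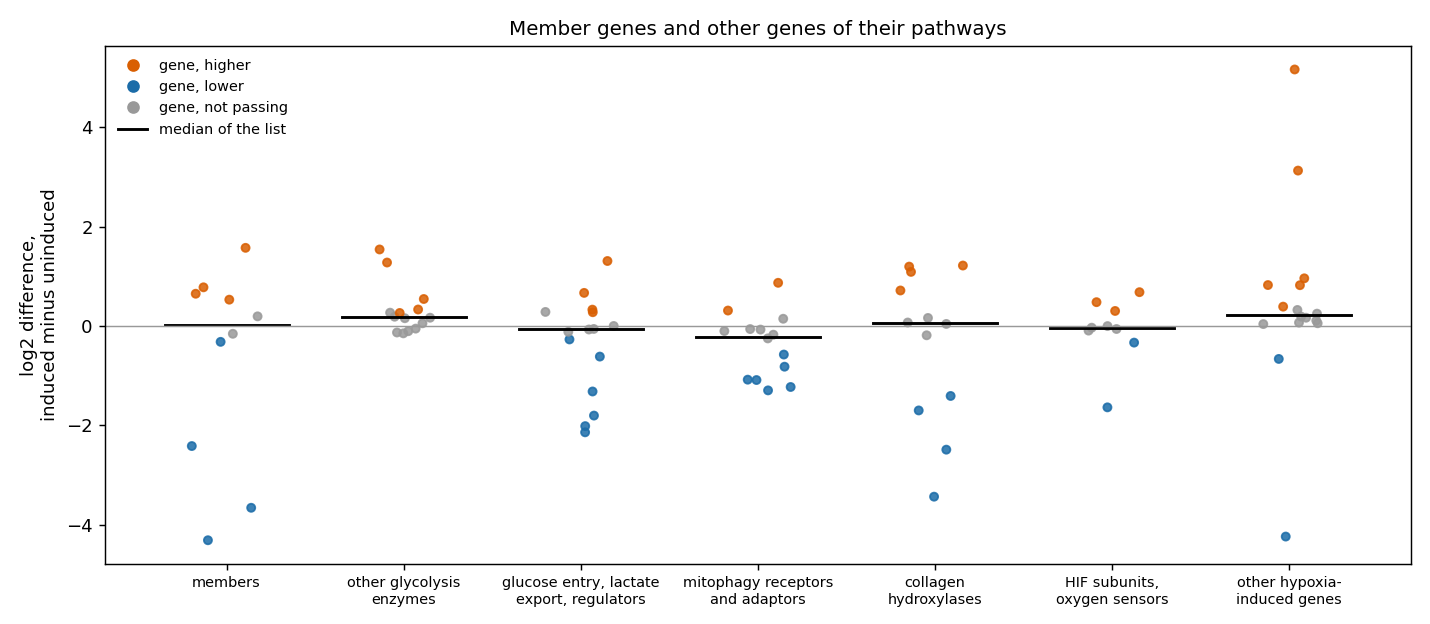
Induced minus uninduced log2 difference (vertical axis) of every tested gene of the members and of 6 related lists, with the median of each list marked. P4HA2 lies at -4.31 among the members and AK4 at -4.24 and RORA at 5.16 in the hypoxia list, while medians lie between -0.21 and 0.22.

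The genes with the most similar profiles over the 8 arrays were listed for the 4 members that differed by at least 1 log2 unit, using the root mean square distance between centred log2 values. For P4HA2 the nearest were COL12A1, a collagen chain gene, at 0.10 and DCBLD2 at 0.13, then SLC25A4 at 0.15. For PFKL they were VAMP1, TNFRSF10D and CPNE2 (0.10 to 0.12). For BNIP3 they were H1-1, RP1 and CNN2 (0.20 to 0.25), and for ALDOC OR2B6, CMA1 and OPN3 (0.22 to 0.30). Of the 20 next tested genes on either side of the members in RefSeq order, 7 were higher, 6 lower and 7 did not pass. Beside ALDOC, PIGS and SPAG5 did not pass, beside BNIP3, PPP2R2D was higher by 0.81 ± 0.09, and beside P4HA2, FNIP1 was lower (-2.04 ± 0.09) while PDLIM4 did not pass. Both neighbours of LDHA, GTF2H1 and TSG101, were higher, by 0.73 ± 0.10 and 1.08 ± 0.08, and both neighbours of LDHB, SPX and CMAS, were lower (-3.35 ± 0.36 and -0.72 ± 0.12). SPX averaged 3.37 in arrays labelled induced, below the filter, so its call adds no support and its difference is not exact. Both neighbours of HK1 were higher and both of PFKM lower, beside members with no call, and SEMA4F was lower (-1.40 ± 0.10) beside HK2, which was higher.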

How the data were processed

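RNA of L1236 cells was measured on biotin-labelled whole-transcript arrays. The deposited values are log2 signals made with RMA and Partek, per the submitters' processing notes. No source states the base of the logarithm, which was inferred as 2 because RMA usually writes base 2 and the values fit that range. The sources used here give no tool version, genome build or annotation. RMA equalises the distributions of the arrays and compresses dim signals, so a change common to most genes would be removed. The number of arrays limits the precision, and no scan date or slide was used as a batch.

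Gene names came from the platform annotation, and 1754 gene-level probe sets with several symbols were not named. The brightest probe set stood for a gene. Genes whose mean log2 signal lay below the 25th percentile (4.78) were not tested. Limma 3.58.1 in R 4.3.3 fitted induction label, B code and last number over 13796 genes, with residual degrees of freedom of 4 and a prior of 6.27. Its p-values were adjusted by Benjamini-Hochberg over those genes and called at 0.05. An interaction of induction label with B code (residual degrees of freedom 3) and, added after seeing the data, a B term within each group were fitted separately. The same induction fit was run over 168240 exon-level probe sets. Within-array differences of 2 genes were compared by exact permutation of the 8 arrays. Promoter sequences are from RefSeq (GRCh38.p14), which matched all 10 members by symbol.

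Same-numbered arrays of the 2 groups had correlations of 0.158, -0.021, 0.114 and 0.022 between their deviations from the group means. Not every one exceeded 0.1, so the numbers were not taken to pair the arrays. Pairs of arrays in the text are those with the same B code and last number, and counts of their directions are descriptions only.

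The members and the lists were chosen with earlier results of these data known. Beside the members, the text names their family partners, the up to 3 largest differences that passed in each list, the 3 nearest profiles of members differing by at least 1 log2 unit, and neighbouring genes. GAPDH, PGK1, PKM, SLC2A1, HIF1A, P4HB, TPI1, CALCOCO2, NBR1, MAP1LC3B, ARNT and MS4A1 were named after their values had been seen.

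Alternatives were the filter, median centring, quantile normalisation, averaging a gene's probe sets, exon-level means, a variance trend with robust fitting, no covariates, a replicate block, and each array left out. Pandas 2.3.3 and the R package data.table, at version 1.17.8, read the files, and matplotlib 3.10.9 drew the figures.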

Additional observations from a re-analysis of the deposited data

Results flagged for a closer look

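In sets of 4 arrays, 3 values of the 36 sets examined stood apart from the other 3 by a larger share of the range than Dixon's limit allows; chance flags about 1 in 20 sets. PFKL was at 9.38 in induced replicate 3, below the other induced arrays. PFKL was at 8.05 in uninduced replicate 1, below the other uninduced arrays. P4HA2 minus P4HA1 was -4.50 in induced replicate 3, above the other induced arrays, where P4HA1 itself was lowest at 9.14. In addition, the induced minus uninduced difference of 2 members differed between the B_4 and B_1 pairs by the interaction test, by -1.27 in ALDOC and -1.23 in BNIP3. BNIP3 was dim and below the filter in the arrays labelled induced, so its value cannot be told apart from the B code difference among the uninduced arrays.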

How the results depend on the processing

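All 8 calls among the members by induction label kept their direction and their side of the threshold in the 18 alternatives, leaving out arrays included, and PFKM joined them under median centring. Centring moved the median of all genes to 0.07 and quantile normalisation to 0.10, against 0.02. The pair as a replicate block kept 4 members higher and 4 lower (PFKM adjusted p = 0.101), and same-numbered arrays correlated best with each other in only 2 of 4 pairs. As a random replicate block the counts were again 4 and 4, but the correlation fitted within pairs was -0.52. Arrays of a shared replicate would not be expected to correlate negatively, so this fit adds little. The weaker results were those on B code. The 2 members called by the interaction became 1 under quantile normalisation 1 with exon-level means, 0 to 1 when an array was left out, and 3 with a variance trend and robust fitting. The 4 members called higher in B_4 within uninduced arrays became 2 with exon-level means and 0 to 4 when an array was left out. PFKM minus PFKP was -0.53 with exon-level means, without overlap, and ran between -0.41 and -0.28 when an array was left out. The values with an array left out were judged by overlap alone, and no exact p is given for them. Under a filter at the median, which tests fewer genes, member exon-level probe sets called lower numbered 23 (36 otherwise), collagen list genes called lower 2 (4 otherwise) and HIF list genes called lower 1 (2 otherwise). Of all alternative values, 444 were classed as the same as the main result, 32 as weaker, 4 as stronger and 18 as changed counts, and none reversed. A count within a set ratio of the main count was classed as the same. Member exon-level probe sets called higher ran from 31 to 52 and were all so classed. For the isozyme pairs, the replicate-block entries repeat the main values and were the same by construction. The 444 therefore overstates how little the values moved. The cause of these changes was otherwise not tested.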
